A study of Drosophila melanogaster with 5 samples.

Results

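The genes described here are bcd, osk, grk, swa, exu, stau, BicD, egl, orb and gus. Most place messenger RNAs inside the Drosophila melanogaster oocyte or are themselves the RNAs that are placed. These 10 genes were taken by symbol from a table of 14094 genes, and all 10 were found in it and had enough counts to be tested. The knockout ovaries came from flies labelled BEAF 32-AB KO (2 libraries), after BEAF-32, an insulator factor found near promoters. The control ovaries came from a line labelled nosGAL4;MKRS/TM6 (3 libraries), which carries the GAL4 activator under the germline promoter of nos and the chromosome 3 balancers MKRS and TM6. The labels describe the knockout allele no further, name nothing carried by both lines, and do not give the number of animals behind a library. All flies were adults dissected 1 to 3 days after eclosion, and total RNA of ovary tissue was sequenced. Effects of the control line's transgene and balancers cannot be told apart from those of BEAF-32, and bcd, osk and orb lie on arm 3R of the balanced chromosome.

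In the growing fly egg, RNAs are made in the nurse cells, carried into the oocyte along microtubules by dynein, and then sorted to its poles. bcd RNA is held at the anterior and encodes the homeodomain protein that patterns the head, osk RNA is held at the posterior and starts the germ plasm, and grk RNA sits beside the oocyte nucleus and encodes the ligand that signals to the follicle cells. The other genes, apart from gus, encode carriers, anchors and translational regulators of these RNAs.

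The knockout libraries held 38820176 and 47805964 estimated counts, and the controls 41105107 (control 1), 8448850 and 10388643 (controls 2 and 3). The smallest count of any of the 10 genes in any library was 119, for grk in control 2. Levels are in CPM, counts per 1000000 of a library's total. Fold changes are given on the log2 scale, as the knockout less the control, with a standard error (SE). They come from the quasi-likelihood test of edgeR, and p-values were adjusted over the 9241 tested genes by the Benjamini-Hochberg method. A gene was called at an adjusted p under 0.05. Nothing in the labels ties libraries to separate flies, so p-values reflect only how these libraries vary, which may be technical. In bulk ovaries, fewer cells of a type and less RNA per cell cannot be told apart. BEAF-32 itself was at 50.2 and 52.8 CPM in the knockout, against 84.9, 136.5 and 144.1 CPM in the controls. It fell by 1.19 on the log2 scale (SE 0.26, adjusted p = 0.0157 by edgeR), but was not called without knockout 1 or knockout 2 (adjusted p = 0.107 and 0.126), and what its RNA level shows of the allele depends on where the allele lies, which is not given.

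Control 1 stood apart from controls 2 and 3 by transcript length as well as by depth. Over 6586 genes with a mean of at least 10 CPM, the log2 difference of control 1 minus controls 2 and 3 correlated with log2 transcript length at r = 0.618 (rho = 0.644). These genes share libraries and are not independent replicates. The median difference ran from -0.50 for transcripts under 1 kb to 0.72 for those of 4 to 8 kb and 1.76 for those over 8 kb. For the knockout minus control 1, the same medians were 0.21, -0.28 and 0.06, and for the knockout minus controls 2 and 3 they were -0.31, 0.48 and 2.19. Results for the 10 genes are therefore also given without control 1, with a depth class term (controls 2 and 3 set apart from the other libraries), or with each library's length trend removed, wherever these settings change a call, a direction or a value by over 1.5 times. With a depth class term the knockout is set against control 1 alone, and without knockout 1 or knockout 2 the knockout is a single library. In these fits the lone library is assumed to vary like the others, so a call made there has no replicate check in that group. Calls also change over all genes: 25.8% were called lower and 28.9% higher with a depth class term, and 30.8% lower and 37.8% higher without control 1. Without knockout 1, 4.34% were lower and 5.12% higher, and without knockout 2, 4.75% lower and 6.38% higher. Without control 2, 15.0% were lower and 16.4% higher, and without control 3, 15.5% lower and 16.6% higher. With scaling over germline genes, 15.6% were lower and 22.1% higher. The part of length or depth in the results was not tested otherwise.

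**Figure D1:**
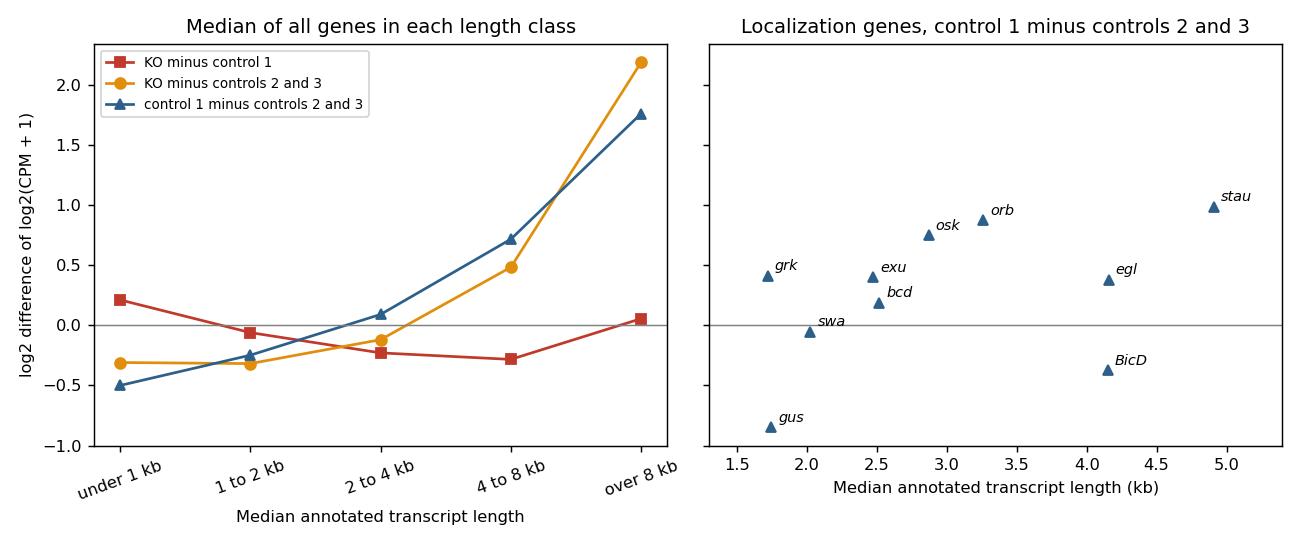
Left: median log2 difference of log2(CPM + 1) over all genes with a mean of at least 10 CPM, by class of median annotated transcript length, for the knockout minus control 1, the knockout minus controls 2 and 3, and control 1 minus controls 2 and 3. Right: the last of these differences for each of the 10 localization genes against transcript length in kb. The long classes were higher in control 1 than in controls 2 and 3, and among the 10 genes stau (0.99), orb (0.88) and osk (0.75) were highest and gus (-0.85) lowest.

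Of the 10 genes, 5 were lower in the knockout (bcd, exu, swa, gus and BicD), 1 was higher (grk), and 4 were not called (osk, stau, egl and orb). Over all tested genes, 41.5% were called, 18.7% lower and 22.7% higher. The median log2 fold change was -0.64 over the 10 genes and 0.11 over all tested genes. Knockout libraries lay below every control for 6 of the 10 and above every control for 2, against 30.5% and 37.6% of all tested genes. The 5 lower genes included the anterior RNA bcd and its localization factors exu and swa, and these 3 had the largest fold changes of the 10. bcd, exu and swa were called lower in every alternative fit as well, and without knockout 1 or without knockout 2 they were the 3 genes still called, with the spread taken from the controls alone.

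**Figure D2:**
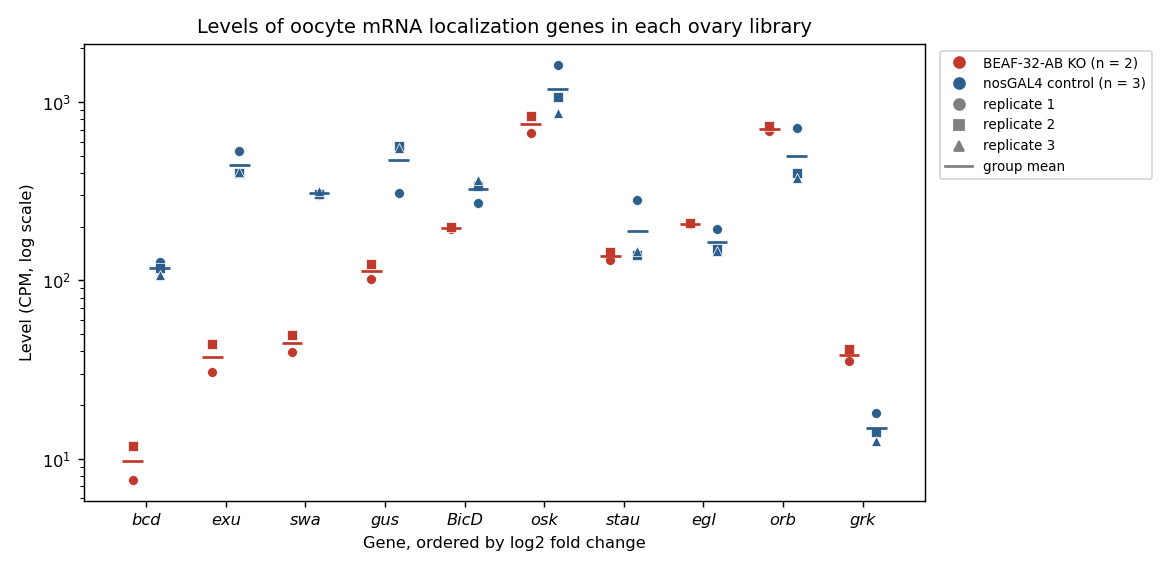
Level of each gene in CPM (log axis) in every library, ordered by log2 fold change, with knockout libraries left of controls. Points are single libraries, shapes are replicates and bars are group means. The groups are far apart for bcd, exu and swa, and overlap for stau and orb, where control 1 is the highest control.

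The anterior determinant bcd (FBgn0000166, chromosome 3R, 6755842 to 6759466, minus strand, dm6) was at 7.59 and 11.8 CPM in the knockout, against 127, 117 and 107 CPM in the controls. Both knockout libraries lay far below all controls, and the controls lay close together. The means were 9.68 ± 2.96 CPM in the knockout (SD, n = 2), against 117 ± 10.2 CPM in the control (SD, n = 3), a 12.1-fold difference. Its log2 fold change was -3.57 (SE 0.24, adjusted p = 0.000568 by edgeR), lower than that of all but 1.94% of tested genes. It ran from -3.84 to -3.38 with any 1 library left out and was called each time.

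exu (FBgn0000615, chromosome 2R, 20667427 to 20671083, minus strand) encodes an RNA-binding protein needed to bring bcd RNA into place. It was at 30.7 and 43.8 CPM in the knockout, against 529.5, 398 and 404.9 CPM in the controls. The knockout thus held a small share of the control level in both libraries, with no overlap. It fell by 3.55 on the log2 scale (SE 0.27, adjusted p = 0.000704 by edgeR), close to bcd. The exons of exu overlap those of galla-1 on the opposite strand, which was at 22.95 and 22.15 CPM in the knockout, against 19.19, 24.98 and 30.23 CPM in the controls. The libraries are directional, but whether strand was used in counting is not given, so reads of such a pair may have been mixed. galla-1 was small beside exu in the controls and near it in the knockout, which leaves the knockout level of exu uncertain.

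swa (FBgn0003655, chromosome X, 6363418 to 6365708, minus strand) encodes Swallow, which holds bcd RNA at the anterior late in oogenesis. It was at 39.6 and 49.4 CPM in the knockout, against 300.5, 305.4 and 317 CPM in the controls. The controls differed by no more than 1.06 times from lowest to highest, the tightest of the 10 genes, although they differ in depth and length trend. swa fell by 2.75 on the log2 scale (SE 0.18, adjusted p = 0.000553 by edgeR), or 6.91-fold in the means.

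stau (FBgn0003520, chromosome 2R, 18117896 to 18125779, minus strand) encodes Staufen, which binds RNA and acts on both bcd and osk, and it was not called. It was at 130 and 144 CPM in the knockout, against 282, 138 and 145 CPM in the controls. The knockout overlapped controls 2 and 3 and lay below control 1. Its log2 fold change was -0.43 (SE 0.36, adjusted p = 0.379 by edgeR). Its value turns on control 1: it was -0.0015 without it (adjusted p = 0.992), but -1.02 against control 1 alone, with a depth class term (adjusted p = 0.000244), and -0.53 with the length trend removed (adjusted p = 0.0345).

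osk (FBgn0003015, chromosome 3R, 8935126 to 8938395, plus strand), the posterior RNA, had the highest mean CPM of the 10 genes in the knockout and the control alike. In knockout 1, though, orb was higher, at 688 CPM. osk itself was at 673 and 839 CPM in the knockout, against 1617, 1065 and 865 CPM in the controls. The knockout lay below every control, but only just below control 3. The log2 fold change was -0.61 (SE 0.31, adjusted p = 0.157 by edgeR), and it was -0.31 without control 1 (adjusted p = 0.0842). Against control 1 alone, with a depth class term, it was -1.09 (adjusted p = 0.000954), while with the length trend removed it was -0.46 (adjusted p = 0.165). The annotation places 2 noncoding genes over the exons of osk, asRNA:CR44020 on the opposite strand and lncRNA:osk on the same one, which shares 78.5% of its exon bases; neither was analysed here, and reads could be shared.

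grk (FBgn0001137, chromosome 2L, 8431086 to 8433598, minus strand), whose RNA encodes the ligand Gurken, was the 1 gene of the 10 called higher. It was at 35.3 and 41.2 CPM in the knockout, against 18.03, 14.1 and 12.5 CPM in the controls. Both knockout libraries lay above all controls, by 2.57-fold in the mean, and the log2 fold change was 1.39 (SE 0.22, adjusted p = 0.00535 by edgeR). It was not called without knockout 1 (1.39, adjusted p = 0.0668) or without knockout 2 (1.35, adjusted p = 0.0642). The exons of grk share 212 bases, 12.3% of their length, with Akap200 on the opposite strand. Akap200 was far more abundant and higher in the knockout too, at 1292 and 1026 CPM, against 519, 512 and 464 CPM in the controls (1.27, SE 0.19, adjusted p = 0.00524 by edgeR). Without the strand setting, the level and the fold change of grk are uncertain, and the part of Akap200 reads in them was not tested.

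BicD and egl encode partners: Egalitarian binds the RNA, and Bicaudal-D links it to dynein. BicD (FBgn0000183, chromosome 2L, 17459605 to 17473215, minus strand) was at 193 and 199.8 CPM in the knockout, against 270.2, 336 and 364.5 CPM in the controls. The groups did not overlap, and the log2 fold change was -0.68 (SE 0.19, adjusted p = 0.0348 by edgeR). This call was lost without any 1 of knockout 1 (-0.76, adjusted p = 0.163), knockout 2 (-0.64, adjusted p = 0.212), control 2 (-0.75, adjusted p = 0.0762) or control 3 (-0.63, adjusted p = 0.0775), with scaling over germline genes (-0.71, adjusted p = 0.0871) and with the length trend removed (-0.74, adjusted p = 0.0596). With a depth class term it was -0.44 (adjusted p = 0.0278). egl (FBgn0000562, chromosome 2R, 23734904 to 23746829, minus strand) was at 205.7 and 209 CPM in the knockout, against 193, 150.4 and 146 CPM in the controls. Both knockout libraries were above every control, but control 1 came near them. The log2 fold change was 0.39 (SE 0.20, adjusted p = 0.166 by edgeR). Both without control 1 (0.54, adjusted p = 0.00232) and with the length trend removed (0.37, adjusted p = 0.0498) it was called higher, and it was 0.12 with a depth class term (adjusted p = 0.474).

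orb (FBgn0004882, chromosome 3R, 23260610 to 23280856, minus strand) encodes a cytoplasmic polyadenylation element binding protein that controls the translation of localized RNAs, osk and grk among them. It was at 688 and 730.0 CPM in the knockout, against 714, 402 and 375 CPM in the controls. Control 1 lay between both knockout libraries, and controls 2 and 3 were well below. The log2 fold change was 0.55 (SE 0.32, adjusted p = 0.217 by edgeR). It was called higher both without control 1 (0.92, adjusted p = 0.000115) and with the length trend removed (0.68, adjusted p = 0.0468), and was 0.01 with a depth class term (adjusted p = 0.979).

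gus encodes Gustavus, a protein with a SPRY domain and a SOCS box that binds the germ plasm helicase Vasa. gus (FBgn0026238, chromosome 2R, 5116990 to 5128321, minus strand) was at 102 and 123.5 CPM in the knockout, against 309, 566 and 549 CPM in the controls. All controls were above the knockout, and control 1 was the lowest control, whereas it was the highest for osk, stau and orb. It fell by 2.03 on the log2 scale (SE 0.31, adjusted p = 0.00512 by edgeR). The log2 fold change was -1.44 with a depth class term (adjusted p = 5.02e-05), and it was not called without knockout 1 (-1.996, adjusted p = 0.0573) or without knockout 2 (-2.10, adjusted p = 0.0534).

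**Figure D3:**
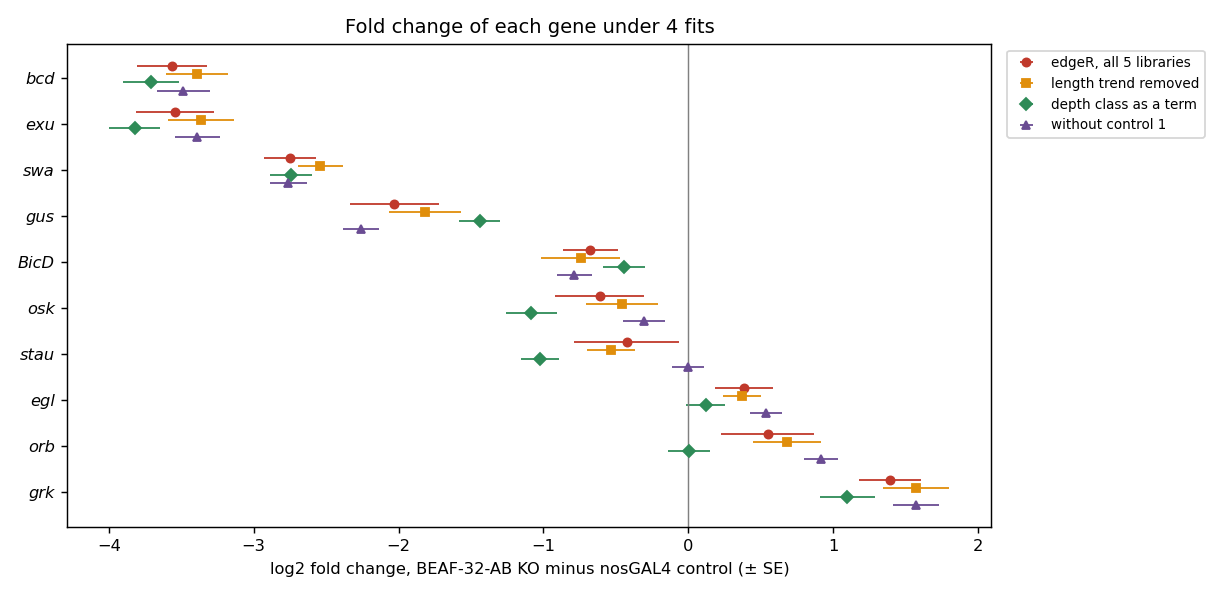
Log2 fold change (knockout minus control) with its SE for each gene under 4 fits: all 5 libraries, the length trend removed, a depth class term, and without control 1. Every gene keeps its side of 0 under all 4 fits, but stau ran from -1.02 to -0.0015 and orb from 0.01 to 0.92.

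The order of the 10 genes by level differed between the genotypes. Per kilobase of annotated exon, osk was highest in the knockout at 264 ± 40.9 CPM per kb (SD, n = 2), and in the control at 412 ± 135.7 CPM per kb (SD, n = 3). In the knockout, orb (74.2), gus (50.1), egl (46.0), BicD (35.7), stau (25.5), grk (22.3), swa (22.01), exu (11.3) and bcd (3.82 CPM per kb) followed, and the libraries of neighbours in that order overlapped only for gus with egl and for grk with swa. In the control, gus (211), swa (152), exu (135), BicD (58.8), orb (52.1), bcd (46.2), egl (36.2), stau (35.1) and grk (8.66 CPM per kb) followed, and neighbours were separate in all libraries only for osk over gus, exu over BicD and stau over grk. The place of orb depends on the length used, since its 7 annotated transcripts together cover 9.55 kb but have a median of 3.26 kb. By that median it was at 218 CPM per kb in the knockout, still the second highest, and at 153 CPM per kb in the control. There it moved from rank 6 to rank 4, with exu at rank 3, swa at 5 and BicD at 6. bcd was thus the lowest of the 10 in the knockout and the seventh in the control, and grk the seventh in the knockout and the lowest in the control.

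Ratios of counts within a library do not depend on any scaling between libraries, so each gene was also set against osk. bcd had 0.0113 and 0.0140 counts per osk count in the knockout, against 0.0788, 0.1096 and 0.124 in the controls. exu had 0.0456 and 0.0522 counts per osk count in the knockout, against 0.327, 0.374 and 0.468 in the controls. swa had 0.0588 and 0.0589 in the knockout, against 0.186, 0.287 and 0.367 in the controls. The anterior genes were thus low relative to osk in both knockout libraries, with log2 differences of -3.02 (bcd), -2.98 (exu) and -2.19 (swa).

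orb went the other way, with 1.02 and 0.870 counts per osk count in the knockout, against 0.442, 0.378 and 0.434 in the controls. egl (0.306 and 0.249 in the knockout, against 0.120, 0.141 and 0.169 in the controls) and grk (0.0525 and 0.0490 in the knockout, against 0.01115, 0.0132 and 0.0145 in the controls) did so too. Of 9 genes set against osk, 4 had all knockout libraries below the controls (bcd, exu, swa and gus) and 3 had them above (orb, egl and grk), whereas BicD and stau overlapped. Over the other tested genes, 8.76% lay lower and 53.1% higher per osk count in the knockout, so a gene above the controls in this ratio, as orb, egl and grk were, shared that place with most genes. With 2 against 3 libraries an exact two-sided permutation test has 10 groupings and cannot give a p under 0.1, which bcd, exu, swa, grk, egl and orb reached (Benjamini-Hochberg adjusted p = 0.15 over the 9 genes). For gus the exact permutation p was 0.2.

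**Figure D4:**
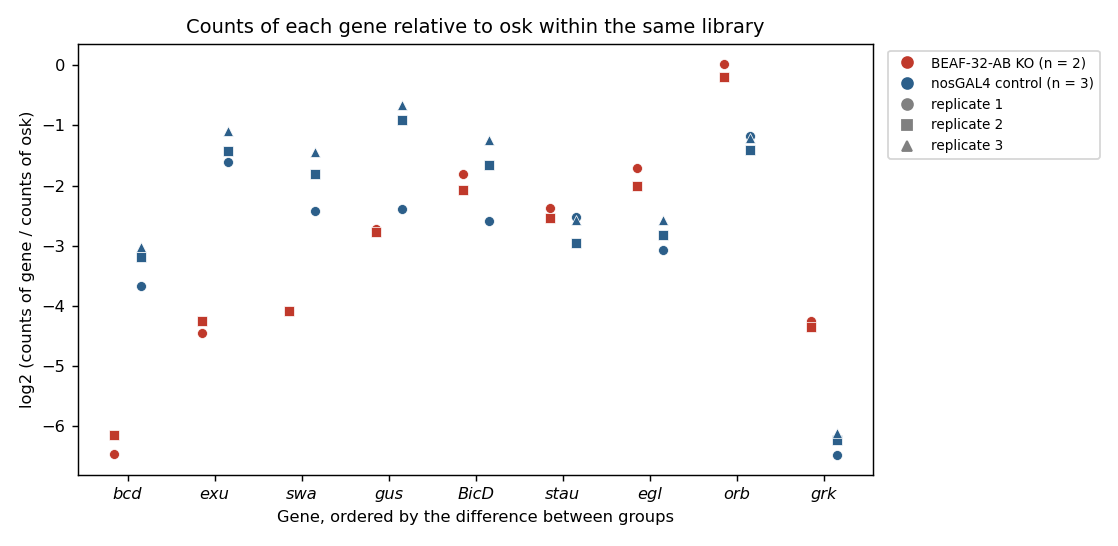
Log2 of the counts of each gene per count of osk in the same library, knockout left of control, ordered by the difference between the groups. bcd, exu, swa and gus lie lower in both knockout libraries and orb, egl and grk higher, while BicD and stau overlap.

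The summed levels of the chorion, muscle and follicle cell marker lists differed between the groups, while those of a germline list overlapped. The calls in each list below stand beside 18.7% lower and 22.7% higher over all tested genes. A list of 20 germline nuage and piRNA genes summed to 1886 and 2146 CPM in the knockout, against 1801 to 2371 CPM in the controls, so the groups overlapped, and 3 of its members were called lower and 5 higher (0 and 0 without knockout 1 or without knockout 2). Relative to that sum, bcd counts were 0.402% and 0.549% in the knockout, against 5.37%, 5.71% and 5.94% in the controls, and 9 of the 10 genes did not overlap between the groups, 6 lower and 3 higher, against 26.3% lower and 38.9% higher of all tested genes. The 9 chorion genes, made by follicle cells in the last stages of egg formation, summed to 5.41 and 10.1 CPM in the knockout, against 9953 to 19000 CPM in the controls. All 9 fell, and Cp16 had no count in knockout 1. Of 10 muscle genes 9 were called higher. The 10 summed to 4738 and 4734 CPM in the knockout, against 404.7 to 747 CPM in the controls. The gene not called, sls, was also above every control in both knockout libraries (4.12, SE 1.36, adjusted p = 0.0558 by edgeR). Of 18 follicle cell genes 10 were called higher and 5 lower. The 18 summed to 5072 and 4385 CPM in the knockout, against 12060 to 17490 CPM in the controls. The counts were 2 higher and 4 lower without knockout 1, and 3 higher and 4 lower without knockout 2. Of this list, upd1 in control 2 and cas in control 3 had no count. The part of these differences in the levels of the 10 genes was not tested.

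Other genes of RNA localization, from lists of known partners, were called in both directions. Counted without the 10 genes and each gene once, 26 of 100 were called lower and 11 higher, with a median log2 fold change of -0.08, against 18.7% and 22.7% of all tested genes. The counts were 10 lower and 0 higher without knockout 1, 12 lower and 1 higher without knockout 2, 21 lower and 2 higher without control 2, 21 lower and 5 higher without control 3, and 38 lower and 28 higher of 99 tested without control 1. Over all tested genes, 15.0% were lower and 16.4% higher without control 2, and 15.5% lower and 16.6% higher without control 3. Without control 1 these shares were 30.8% and 37.8%. Of 28 calls named here, scaling over germline genes ended 5 (Fmr1, DCTN1-p150, chic, lsn and spn-B, adjusted p = 0.0501 to 0.101), and leaving out the low-count filter ended that of baz (adjusted p = 0.0508). DESeq2 called 3 of the genes named as not called, Tm1, hts and Spp. Other localized germline RNAs had 4 of 8 lower and 0 higher, with a median of -0.88. CycB, the RNA of Cyclin B, was at 303 and 393 CPM in the knockout, against 2879, 2869 and 2998 CPM in the controls (-3.03, SE 0.19). pgc, whose product silences transcription in germ cells, was at 21.95 and 29.2 CPM in the knockout, against 136, 252 and 251 CPM in the controls (-3.02, SE 0.34). nos, the posterior translational repressor, changed by -3.43 (SE 0.23), and it may share reads with the nos-driven transgene of the control. gcl, needed to form germ cells, changed by -1.55 (SE 0.23), and was not called without knockout 1 or knockout 2 (adjusted p = 0.0725 and 0.0534). The chaperone RNA Hsp83 was at 2947 ± 191 CPM in the knockout, against 3537 ± 925.5 CPM in the control (-0.22, SE 0.26), and hts, the gene of an adducin, changed by 0.41 (SE 0.17). These last values were not called, but Hsp83 was lower with a depth class term (-0.62, adjusted p = 0.0174) and was 0.02 without control 1, where hts was higher (0.46, adjusted p = 0.00851) and 2 of the list were called higher. Without either knockout library in turn, 3 of the list were lower.

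Of 18 tested genes of the exon junction complex and the osk RNA particle, 6 were lower and 1 higher (median -0.28). Over all tested genes, 18.7% were lower and 22.7% higher. The repressor helicase me31B was at 461 and 542.5 CPM in the knockout, against 2645, 3213 and 2486 CPM in the controls (-2.43, SE 0.19, adjusted p = 0.000781 by edgeR). Its partner tral changed by -1.88 (SE 0.18), and the exon junction factor Pym by -1.91 (SE 0.28). The translational regulator Fmr1 changed by -0.70 (SE 0.17). Pym and Fmr1 were not called without knockout 1 (adjusted p = 0.0502 and 0.108) or without knockout 2 (adjusted p = 0.0566 and 0.193), and Fmr1 also not without control 2 (adjusted p = 0.0516) or control 3 (adjusted p = 0.0657). The hnRNP genes sqd, at 1838 ± 149 CPM in the knockout, against 1950 ± 79.25 CPM in the control, and Hrb27C, at 2059 ± 137 CPM in the knockout, against 2963 ± 841 CPM in the control, were not called. Hrb27C was called lower without control 1 (-0.69, adjusted p = 0.00292) and was 0.07 with a depth class term, and sqd, close to 0, changed sign in 3 fits. cup was not analysed here. Without knockout 1 or knockout 2, 2 of the 18 were lower and 0 higher, without control 2 or control 3, 3 lower and 0 higher, and without control 1, 10 lower and 5 higher, against 30.8% and 37.8% of all genes. Over all tested genes, 15.0% were lower and 16.4% higher without control 2, and 15.5% and 16.6% without control 3. With scaling over germline genes 3 of the 18 were lower and 2 higher, against 15.6% and 22.1% of all tested genes.

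Translation and polyadenylation factors of the oocyte had 5 of 12 lower and 1 higher (median -0.46), against 18.7% and 22.7% of all tested genes. Without either knockout library in turn 3 were lower and 0 higher, 2 were higher without control 1, and 0 were higher without control 2 or control 3. Of all tested genes, 37.8% were higher without control 1, 16.4% without control 2 and 16.6% without control 3. The repressor smg was at 169.5 and 206 CPM in the knockout, against 1942, 1154 and 1081 CPM in the controls (-2.86, SE 0.34). The poly(A) polymerase wisp was at 81.5 and 106 CPM in the knockout, against 997, 436 and 436.9 CPM in the controls (-2.70, SE 0.47), but was not called without knockout 1 or knockout 2 (adjusted p = 0.0887 and 0.0678). orb2, the paralog of orb, changed by -1.92 (SE 0.23) and brat by -1.75 (SE 0.18). The most abundant members that were not called were pAbp, at 3273 ± 801 CPM in the knockout, against 2873 ± 573 CPM in the control, and Not1. With a depth class term pAbp was called higher (0.57, adjusted p = 0.0399). Not1, a scaffold of deadenylation, was at 905 and 920.1 CPM in the knockout, against 898, 201 and 127 CPM in the controls. Its fold change was 1.19 (SE 0.82), called higher in the fit without control 1 (2.53, adjusted p = 1.04e-05), and was 0.04 with a depth class term and 0.73 with the length trend removed.

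Dynein and dynactin genes encode the motor that BicD and egl use. Of the 15, 3 were lower and 0 higher (median -0.17), against 18.7% and 22.7% of all tested genes. These were DCTN4-p62 (-0.92, SE 0.20), Dlic (-0.89, SE 0.20) and DCTN1-p150 (-0.72, SE 0.16), and none of the 15 was called without knockout 1 or without knockout 2. The dynein light chain ctp was at 662 ± 50.3 CPM in the knockout, against 678 ± 46.8 CPM in the control. The heavy chain Dhc64C, with transcripts of 14.28 kb, was at 397 and 407 CPM in the knockout, against 458, 78.8 and 56.5 CPM in the controls. It overlapped between groups, and the fold change was 1.05 (SE 0.90, adjusted p = 0.386 by edgeR), 2.63 without control 1 (adjusted p = 1.11e-06), -0.17 with a depth class term (adjusted p = 0.455) and -0.03 with the length trend removed (adjusted p = 0.902). Without control 1, 7 of the list were lower and 1 higher, against 30.8% and 37.8% of all genes.

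Kinesin and microtubule genes had 4 of 18 lower and 3 higher (median 0.02), against 18.7% and 22.7% of all tested genes. The maternal tubulins gammaTub37C (-3.12, SE 0.21) and alphaTub67C (-2.16, SE 0.225) fell. gammaTub37C was at 12.3 and 15.4 CPM in the knockout, against 102, 131.5 and 137 CPM in the controls. Grip128, of the gamma-tubulin ring complex, changed by -1.30 (SE 0.17, but adjusted p = 0.0643 without knockout 1), and the polarity gene baz by 0.70 (SE 0.17). The call of baz was lost without knockout 1 (adjusted p = 0.215), knockout 2 (adjusted p = 0.127), control 2 (adjusted p = 0.115) or control 3 (adjusted p = 0.102), and with the length trend removed its value was -0.31 (adjusted p = 0.522). betaTub56D (0.08, SE 0.16) and Tm1, which links osk RNA to kinesin (0.44, SE 0.17, adjusted p = 0.0866 by edgeR), were not called, and betaTub56D changed sign without knockout 2 or control 2. Tm1 was called without control 1 (0.44, adjusted p = 0.0195) and with the length trend removed (0.64, adjusted p = 0.018). Without control 1 the list had 5 lower and 10 higher, against 30.8% and 37.8% of all genes, then 2 lower and 0 higher without knockout 1, and 3 lower and 0 higher without knockout 2. Without control 2 or control 3 the count of higher genes was 0, against 16.4% and 16.6% of all genes.

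Actin and posterior anchoring genes had 1 of 16 lower and 4 higher (median 0.17), against 18.7% and 22.7% of all tested genes. 14-3-3zeta changed by 1.12 (SE 0.16), the filamin gene cher by 1.77 (SE 0.32), the profilin gene chic by 0.90 (SE 0.24) and the polarity gene par-6 by -1.19 (SE 0.19). Without knockout 1 none of the 4 was called (adjusted p = 0.0558 to 0.19), without knockout 2 only 14-3-3zeta was (adjusted p of the others 0.0562 to 0.107), and chic was not without control 2 (adjusted p = 0.0815), where 2 of the list were higher. With the length trend removed cher changed by 1.06. Moe (0.27, SE 0.19) and 14-3-3epsilon (-0.29, SE 0.35) were not called, and 14-3-3epsilon was called in opposite directions, lower without control 1 (-0.57, adjusted p = 0.00715) and higher with a depth class term (0.50, adjusted p = 0.0448), where Moe was higher too (0.53, adjusted p = 0.0252) and the list had 4 lower and 8 higher, against 25.8% and 28.9% of all genes.

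Genes of the ESCRT complexes, some of which bind bcd RNA, had 0 of 5 lower and 2 higher (median 0.33). Over all tested genes, 18.7% were lower and 22.7% higher. TSG101 changed by 0.91 (SE 0.19) and lsn by 0.80 (SE 0.22), whereas Vps28 (0.33, SE 0.17) and Vps36 (0.24, SE 0.26) were not called. Vps28 was called higher with the length trend removed (0.51, adjusted p = 0.0394) and Vps36 with a depth class term (0.72, adjusted p = 0.0144). TSG101 and lsn were not called without knockout 1, knockout 2 or control 2 (adjusted p = 0.0512 to 0.221 over these fits). Genes that handle grk RNA and its product had 3 of 9 lower and 0 higher (median -0.39). otu was at 93.04 and 109.5 CPM in the knockout, against 871, 529.8 and 483 CPM in the controls (-2.60, SE 0.33), and the repair genes spn-D (-2.01, SE 0.40) and spn-B (-1.24, SE 0.35) were low in both groups. Without knockout 1 none of these 3 was called (adjusted p = 0.0502 to 0.218), and without knockout 2 only otu was. Spp, a signal peptide peptidase (-0.39, SE 0.16, adjusted p = 0.101 by edgeR), was called lower without control 1 (-0.46, adjusted p = 0.00681), where 5 of the 9 were lower and 1 higher (30.8% and 37.8% of all genes), and was -0.19 with the length trend removed. spn-B was not called without control 2 (adjusted p = 0.0579) or control 3 (adjusted p = 0.0669) either. Its call was also lost with a depth class term and with the replicate number as a block (adjusted p = 0.121 by edgeR).

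**Figure D5:**
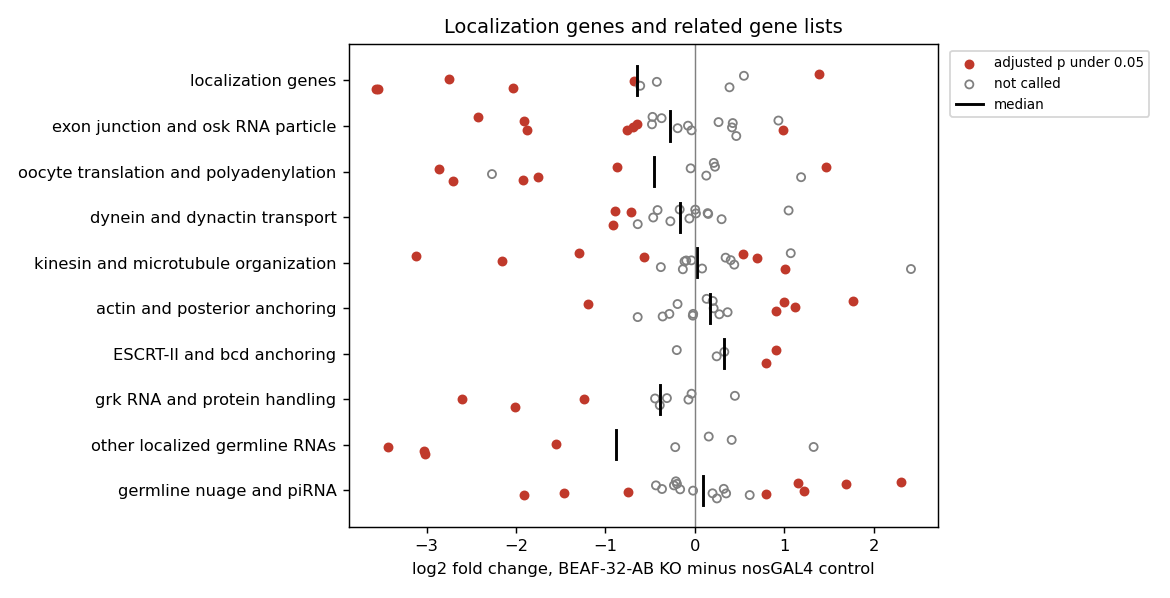
Log2 fold change (knockout minus control) of every tested gene of the 10 localization genes, of the lists of their known partners and of the germline nuage and piRNA list. Filled points were called at an adjusted p under 0.05, open points were not, and black bars are medians, which ran from -0.88 (other localized germline RNAs) to 0.33 (ESCRT genes), with -0.64 for the 10 localization genes.

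The genes most like bcd, osk and stau over the 5 libraries were found by the root mean square difference of log2(CPM + 1), centred on each gene's mean, among 6614 genes with a mean of at least 10 CPM. For bcd these were cad (0.086), exu (0.097) and Cyp6a19 (0.166), so that exu, itself one of the 10, was the second closest. cad was at 17.8 and 22.7 CPM in the knockout, against 250.2, 219.6 and 215 CPM in the controls. For osk they were ova (0.041), Art4 (0.055) and RhoGAP93B (0.080), and for stau lid (0.050), Sec16 (0.051) and isoQC (0.065). All 3 that resemble stau shared its high level in control 1: lid was at 181 and 189 CPM in the knockout, against 392.2, 202 and 199 CPM in the controls. All genes are subject to the same differences in depth and length trend between the 5 libraries, so this is only a coarse measure of likeness.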

How the data were processed

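Total RNA from ovaries was made into directional libraries, per the labels' protocols. The tools named are Salmon 1.2.1, STAR 2.7.5b, Trim Galore 0.6.6 and FastQC 0.11.8, with build dm6, per the submitters' processing notes; order, settings, annotation and strand setting are not given in the sources used here. A single table of unscaled, estimated counts was deposited by the authors, in which 5.33% to 9.29% of values per library have a fraction; columns were matched by sample description and groups by title. The series design speaks of duplicates, but 3 control libraries are labelled and all were used.

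Estimated counts were rounded and filtered with filterByExpr (9241 genes kept), scaled with TMM (0.941 to 1.03) and fitted with edgeR 4.0.16 in R 4.3.3 (glmQLFit, robust, and glmQLFTest) with no covariate. CPM used column totals, of which 11.7% to 17.3% lay on genes with rRNA in their symbol. Each SE is the log2 fold change over the root of its F statistic. Of 14094 identifiers, 99.7% were in Ensembl 115 (BDGP6.54, dm6 coordinates), which gave positions and lengths; eIF4A3 was matched to CG7483 by a RefSeq synonym. Control 2 and control 3 were the most similar pair, at a chi-square per degree of freedom of 12.5, so no library was a duplicate.

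The 10 genes and the lists were chosen with earlier results of these data known. Named were BEAF-32, the 10 genes, up to 4 called genes with the smallest p and the 2 most abundant uncalled genes of each partner list, and the 3 genes most like bcd, osk and stau; galla-1, Akap200 and single markers were added after their values were seen. Alternatives were DESeq2 1.42.0, limma-voom 3.58.1, other scalings and filters, thinning to equal totals, a depth class term (controls 2 and 3 against the other libraries), a replicate block, leaving out each library and, added after the data were seen, removal of each library's lowess trend on median annotated transcript length. The main edgeR fit, DESeq2, limma-voom and the length trend removal were tested on simulated counts. The other alternatives were not. No sequence is shown.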

Additional observations from a re-analysis of the deposited data

How the results depend on the processing

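The 10 genes were refitted under 16 alternatives, 160 fold changes in all. None reversed, 141 kept their side of the threshold, 12 lost their call and 7 gained one. With any 1 library left out, 3 to 5 of the 10 genes were called lower and 0 to 3 higher, and 878 to 6083 genes were called in all, against 3831 with all 5 libraries. Over all tested genes, leaving out 1 control gave 15.0% to 30.8% lower and 16.4% to 37.8% higher. Removing the length trend gave 5 of the 10 genes lower and 3 higher, against 20.0% and 30.1% of all tested genes. It gave 4625 called genes in all, 60.1% of them higher against 54.9% in the main fit. Over all tested genes the fold change had a median of 0.11, and of 0.27 with no filter, 0.22 with the length trend removed and 0.002 after thinning. Fitting libraries 1 and 2 of each group with the replicate number as a block gave 4 genes lower and 1 higher. Over all genes tested in that fit, 16.0% were lower and 16.5% higher, 2976 called genes in all. Only 2 numbers are shared by the groups (correlation of deviations 0.145 for number 1 and 0.117 for number 2), so they were not taken as pairs. Under the block, among the 10 genes, only the call of BicD was lost (adjusted p = 0.15), as it was in the same 4 libraries without the block (adjusted p = 0.0775 by edgeR). The block also ended 6 of 28 calls of named partner genes, against 3 in the same libraries without it. Relative to osk, stau differed by 0.22 between the groups and by -0.35 relative to the germline sum. BicD differed by -0.11 relative to osk, by -0.48 to 0.19 with 1 library left out, by 0.03 without knockout 2 and by 0.19 without control 3. Of 28 calls of named partner genes, 18 were lost without knockout 1 and 15 without knockout 2. The cause of these changes was not tested. Depth limits the lowest levels: 3 counts are 0.355 CPM in the shallowest library and 0.0628 CPM in the deepest.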
